A study of Mus musculus with 2 samples.

Results

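The proteasome is the barrel-shaped protease that degrades ubiquitin-tagged proteins. In the annotation of mouse build mm10 (GRCm38), 49 of 21853 protein-coding genes carry a symbol made of Psm, a letter from a to g and a digit, with Psmb11 left out. They comprise 41 constitutive genes (subunits, regulators and assembly chaperones), 5 immunoproteasome genes (Psmb8, Psmb9, Psmb10, Psme1 and Psme2) and 3 others. The others are Psma8, an alpha subunit of germ cells, Psmc3ip, a meiotic recombination factor included by its symbol, and Psme2b, an annotated relative of Psme2. Open chromatin around them was measured by DNase-seq, in which DNase I cuts accessible DNA, in whole thymus of newborn mice (strain B6NCrl, age 0 days, male and female pooled). There was 1 group of 2 biological replicates, untreated as far as the labels say. Both replicates carry 1 donor label but separate biosample labels. The SD over n = 2 may therefore be technical in part.

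The core particle of the proteasome is a stack of alpha and beta rings, and 3 beta subunits of each beta ring (Psmb6, Psmb7 and Psmb5) cut the substrate. In cells that meet interferon, and at a steady level in many immune cells, newly built particles take up Psmb9, Psmb10 and Psmb8 in their places, which changes the peptides offered to T cells on MHC class I. The regulatory particle recognises and unfolds substrates, while the PA28 activator (Psme1 and Psme2) opens the core particle without ubiquitin. Some T cells in the thymus are selected on peptides offered by MHC class I.

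Each replicate came with a list of peaks of 150 bp, 154812 in replicate 1 and 139702 in replicate 2. Each peak carries the authors' whole-number score from 1 to 150, with no statement of its meaning, so a peak is also given by its rank, the percentage of peaks of its own list with a lower score. Read totals are unknown. Wider enriched regions, called hotspots, came with a −log10 q-value that is capped at 100. Of the T cell markers checked, 8 of 8 had a peak within 1000 bp of a start site in both replicates, with median ranks of 95.8 and 94.8. The lowest of these was Cd4, at ranks of 80.8 and 82.7. The count was 1 of 4 for B cell, 2 of 4 for myeloid, 1 of 3 for thymic epithelial, 1 of 3 for erythroid and 2 of 3 for endothelial markers. Their median ranks were 95.0 and 92.3 for B cell (Pax5 alone), 42.8 and 30.0 for myeloid and 64.8 and 75.7 for thymic epithelial markers. For erythroid markers they were 85.8 and 86.7, and for endothelial markers 76.5 and 71.7. Of all coding genes, 62.2% had such a peak in both replicates. The cells behind a peak are mixed: a site open in few cells and a site weakly open in many cannot be told apart.

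Upstream sequences of the catalytic genes are shown first, to set the constitutive and interferon-inducible forms side by side. They were read from the RefSeq copy of GRCm38, 5′ to 3′ in the direction of transcription, and hold no annotated exon. Capitals mark any match to the motifs named further on, and bases are counted from the main start, with -1 just before it. The stretches run from -150 to -1 except where an annotated exon moved them: Psmb6 runs from -169 to -20 and Psmb8 from -219 to -70. The Psmb5 stretch is chr14:54618023-54618172 (minus strand), the Psmb6 stretch chr11:70525217-70525366 (plus strand) and the Psmb7 stretch chr2:38644088-38644237 (minus strand). The interferon-inducible counterparts are Psmb8 at chr17:34197571-34197720 (plus strand) and Psmb10 at chr8:105938445-105938594 (minus strand). For Psmb9 the sequence in front of the start overlaps exons of Tap1, and it is not shown.
Psmb5: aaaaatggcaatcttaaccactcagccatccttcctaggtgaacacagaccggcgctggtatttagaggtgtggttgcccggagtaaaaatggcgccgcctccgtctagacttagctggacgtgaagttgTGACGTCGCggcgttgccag
Psmb6: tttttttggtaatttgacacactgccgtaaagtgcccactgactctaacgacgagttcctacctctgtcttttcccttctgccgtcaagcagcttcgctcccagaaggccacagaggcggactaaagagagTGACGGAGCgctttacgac
Psmb7: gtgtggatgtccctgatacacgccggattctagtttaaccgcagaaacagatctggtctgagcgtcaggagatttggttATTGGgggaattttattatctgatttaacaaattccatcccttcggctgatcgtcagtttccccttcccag
Psmb8: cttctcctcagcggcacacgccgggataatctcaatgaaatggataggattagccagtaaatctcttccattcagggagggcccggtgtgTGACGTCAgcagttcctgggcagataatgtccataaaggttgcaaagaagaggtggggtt
Psmb10: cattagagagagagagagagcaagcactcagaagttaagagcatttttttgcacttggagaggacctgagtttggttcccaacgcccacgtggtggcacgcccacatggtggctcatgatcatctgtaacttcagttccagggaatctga

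These stretches are 150 bases each and differ in base content. CpG dinucleotides numbered 11 in Psmb5, 9 in Psmb6 and 6 in Psmb7, against 5 in Psmb8 and 3 in Psmb10. The Psmb5 and Psmb6 stretches hold TGACNNNGC, the core of the antioxidant response element through which Nfe2l1 (also called Nrf1), the factor that raises proteasome genes when proteasome activity falls, binds DNA. It starts 20 bases before the start site in Psmb5 and 38 bases before it in Psmb6. Psmb7 holds a CCAAT box on the reverse strand, at 71 bases before the start. Psmb8 holds TGACGTCA, the cAMP response element, at 129 bases before the start. The Psmb10 stretch holds none of the motifs searched.

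Almost every proteasome gene had an open promoter in newborn thymus. A promoter peak, one centred within 1000 bp of a start site of a coding transcript, was present in both replicates at 47 of 49 genes. The same held for 62.2% of all protein-coding genes and for 92.6% of the 10049 genes whose start is rich in CpG (at least 50% G+C and an observed-to-expected CpG ratio of at least 0.6 within 500 bp). All 41 constitutive genes and all 5 immunoproteasome genes were among the 47, with Psmc3ip. The remaining genes were Psma8 and Psme2b. Psma8 had no promoter peak in replicate 1 and 1 peak with a score of 28 in replicate 2, centred on the start site, at rank 27.5. Psme2b had none in replicate 1 and peaks with scores of 8 and 11 in replicate 2. Both stood far below the other genes, whose lowest score was 88 (Psmb10 in replicate 1). Psme2b values are uncertain, because the placement of reads from near-identical gene copies is not given in the sources used here.

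**Figure D1:**
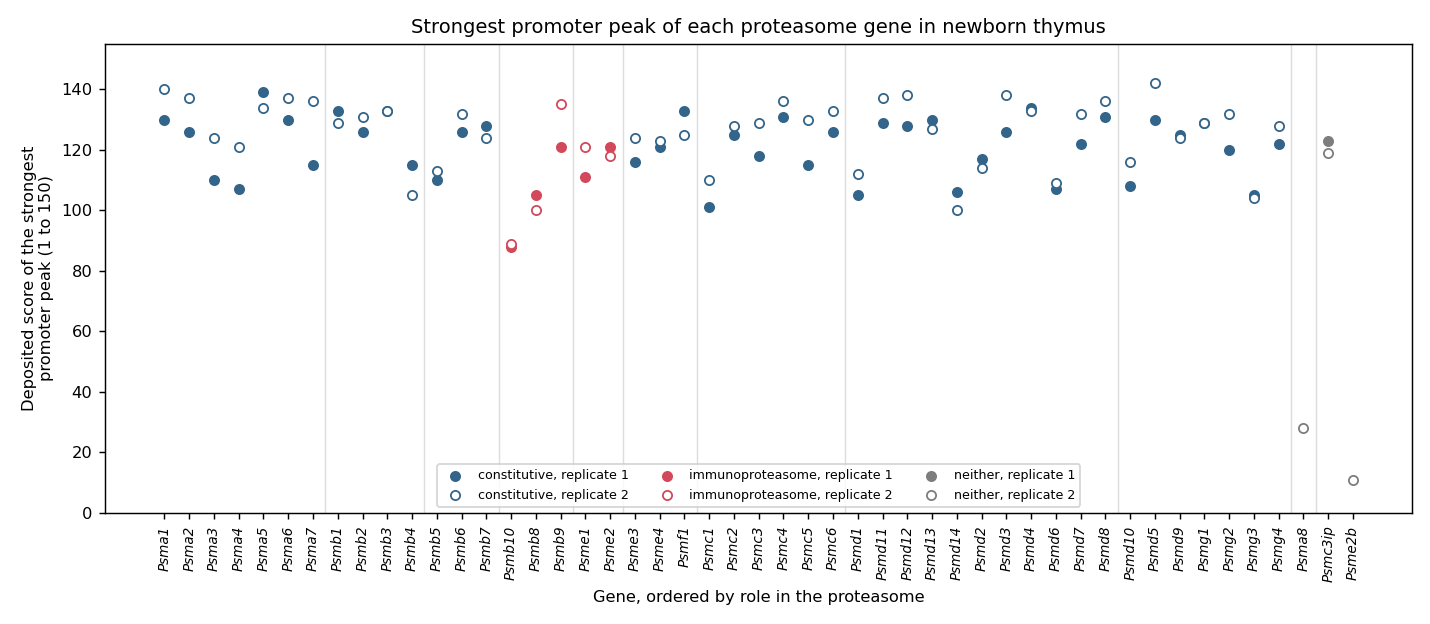
Deposited score (1 to 150) of the strongest promoter peak of each of the 49 proteasome genes, ordered by role, with filled points for replicate 1 and open points for replicate 2. Constitutive genes sit between 100 and 142, the immunoproteasome gene Psmb10 lies at 88 and 89, and Psma8 and Psme2b have a point in replicate 2 alone.

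The strongest promoter peaks of constitutive genes ranked high in both lists. Their median rank was 97.1 in replicate 1 and 96.4 in replicate 2 (mean 96.8 ± 0.53, SD, n = 2), against 94.3 ± 0.078 for all coding genes with a promoter peak in both replicates and 95.8 for those with a CpG-rich start. Of the 41 genes, 30 ranked above the median of all coding genes and all 41 above their lower quartile of 83.3. Scores ran from 101 to 139 in replicate 1 and from 100 to 142 in replicate 2. The spread is narrow: the lowest mean rank was 90.2 and the highest 99.0. Genes are not replicates, so no test was made over them.

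The alpha ring, which gates the entry of substrates, had the highest median among the constitutive groups, by less than the spread between replicates. Its 7 genes (Psma1 to Psma7) had a median rank of 97.8 ± 0.60 (SD, n = 2). Psma5 scored 139 and 134, with its peak 125 and 105 bp downstream of the start. Psma1 scored 130 and 140, with its peak 53 and 33 bp upstream. Psma4 was the lowest of the ring at 107 and 121.

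The beta ring gave similar values. Psmb1, Psmb2, Psmb3 and Psmb4, which have no catalytic site in the mature particle, had a median rank of 97.4 ± 1.1. Psmb4 scored 115 and 105, the largest difference in rank between replicates among the proteasome genes (4.28 points). In score, Psma7 differed more (115 and 136). The 3 constitutive catalytic genes had a median rank of 96.2 ± 1.7 (SD, n = 2). Psmb5, the chymotrypsin-like subunit, scored 110 and 113 at 49 bp upstream of the start in both replicates. Psmb6, the caspase-like subunit, scored 126 and 132 at 95 and 55 bp upstream. Psmb7, the trypsin-like subunit, scored 128 and 124 at 116 bp downstream. Psmb5 was the lowest of the 3 in both replicates.

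The regulatory particle did not stand apart from the core particle. Its 6 ATPases (Psmc1 to Psmc6), which unfold substrates, had a median rank of 96.4 ± 0.21. Psmc4 was highest at 131 and 136, and Psmc1 was lowest at 101 and 110. The 11 other subunits had a median rank of 97.3 ± 0.13. Psmd14, the deubiquitinase of the lid, scored 106 and 100 and had the lowest mean rank of all constitutive genes (90.2). Psmd4, a ubiquitin receptor, scored 134 and 133.

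Assembly chaperones covered nearly the whole range of the constitutive genes. The 7 genes (Psmg1 to Psmg4, which build the core particle, and Psmd5, Psmd9 and Psmd10, which build the base of the regulatory particle) had a median rank of 96.2 ± 0.18. Psmd5 scored 130 and 142 and had the highest mean rank of all proteasome genes (99.0). Psmg3 scored 105 and 104, the second lowest mean rank among the constitutive genes (90.6). The other activators and the inhibitor (Psme3, Psme4 and Psmf1) had a median rank of 95.6 ± 0.72. The ranges of these role groups overlap.

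The immunoproteasome genes ranked lower as a group, with wide overlap. Their median rank was 93.3 in replicate 1 and 93.6 in replicate 2 (mean 93.5 ± 0.19), which is 3.29 points below the constitutive genes. The spread of that difference between replicates was 0.720 (SD, n = 2). Of the 5 genes, 2 ranked above the median of all coding genes. Psmb9 at a mean rank of 97.0 was the highest, and 19 of 41 constitutive genes ranked above it. No constitutive gene ranked below Psmb10 (84.3), while 10 ranked below the middle gene of the 5 by mean rank, Psme1 at 93.8.

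The 5 genes differ in where the strongest peak lies, and in whose start it is nearest to. Psmb8 scored 105 and 100 at 541 and 521 bp downstream of its main GENCODE start, within an exon. Another peak scored 101 and 98, at 99 bp upstream of the main start and 30 bp upstream of an alternative GENCODE start. RefSeq places a start of Psmb8 farther downstream, 136 and 116 bp before the centre of the strongest peak. Psmb10 scored 88 and 89 at 333 bp downstream, within an exon, while the peaks nearest to its start scored 69 and 63. At the Psmb10 start the scores were thus the lowest of the catalytic genes in both replicates.

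Psmb9 and Psme2 share their promoter peaks with other genes. Psmb9 lies head to head with Tap1, a subunit of the peptide transporter that delivers proteasome products to MHC class I, with starts 38 bp apart. Its strongest peak scored 121 and 135, within a Psmb9 exon, and was nearest to a Tap1 start. The same peak lay 81 bp upstream of the RefSeq start of Psmb9 in both replicates. A peak 93 bp downstream of the Psmb9 start scored 111 in replicate 1 and was not called in replicate 2. Psme2 scored 121 and 118 at a peak 558 bp upstream, nearest to Rnf31, a ubiquitin ligase subunit that starts 595 bp away on the opposite strand. The peak nearest to the start of Psme2 itself scored 95 and 96. Psme1, the partner of Psme2 in PA28, scored 111 and 121 at 71 bp downstream of a start.

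**Figure D2:**
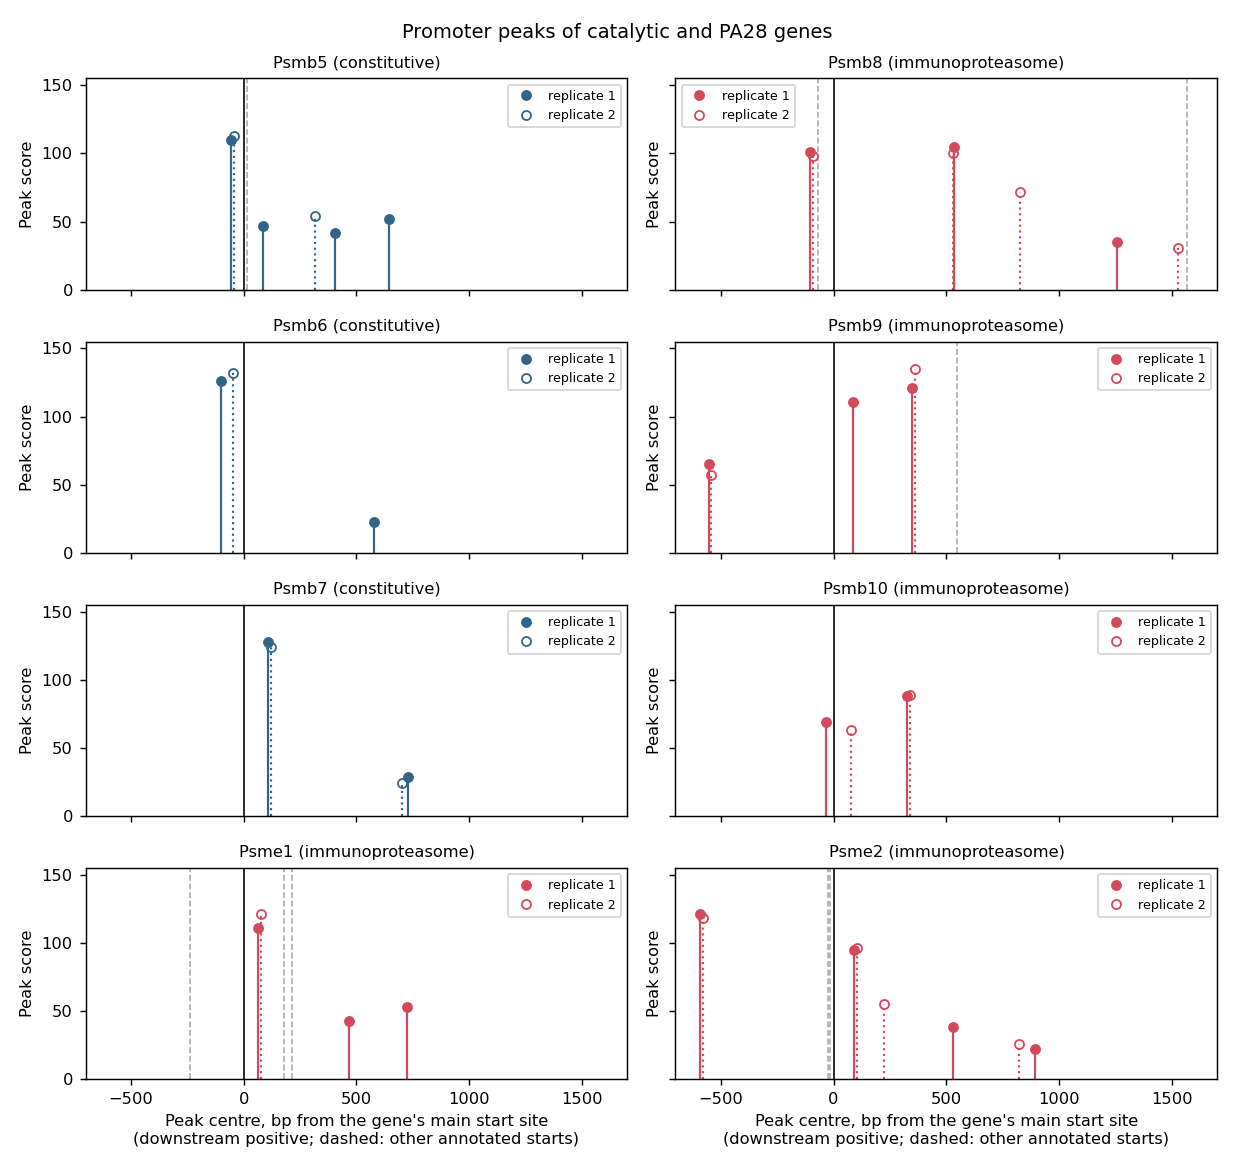
Score of every promoter peak of the constitutive catalytic genes, the immunoproteasome genes and the PA28 genes against the distance of its centre from the main start site in bp, with filled points for replicate 1 and open points for replicate 2 (drawn 12 bp apart so that both can be seen). Dashed lines are other annotated starts. Psmb5, Psmb6 and Psmb7 have 1 high peak near the start, and Psmb8, Psmb9, Psmb10 and Psme2 have their highest peak away from it.

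Distances to the start differed between the classes. The strongest peak lay a median of 39 and 37 bp from the nearest annotated start of constitutive genes and 333 bp from that of immunoproteasome genes in both replicates, against 65 and 60 bp over all coding genes. It lay within 150 bp of a GENCODE start in both replicates at 37 of 41 constitutive genes and 1 of 5 immunoproteasome genes (Psme1). Among all coding genes with a promoter peak in both replicates the share was 71.0%, and 75.1% among those with a CpG-rich start. Measured from RefSeq starts, which 34 constitutive and 5 immunoproteasome genes have, the medians were 53 and 44 bp against 136 and 116 bp. By these starts Psmb8 (136 and 116 bp), Psmb9 (81 bp) and Psme1 (63 bp) were all within 150 bp in both replicates. Psmb10 (281 bp) and Psme2 (570 bp) were not. Taking for each gene the peak nearest to its start, a choice made after the data were seen, the immunoproteasome median fell to a rank of 89.0 and the difference widened to 7.78 points.

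Start sites of the 2 classes also differ in CpG content, and open chromatin followed CpG content across the genome. CpG-rich starts were found at 38 of 41 constitutive genes, 1 of 5 immunoproteasome genes (Psmb9) and 46.0% of all coding genes. The constitutive exceptions were Psmb6, Psmd10 and Psmg4. The median number of CpGs within 500 bp of the start was 59 in constitutive and 37 in immunoproteasome genes, with 16 at Psmb10. Over all coding genes, the share with a promoter peak in both replicates was 4.77% in the decile with the fewest CpGs (0 to 5) and 94.3% in the decile with the most (95 to 180).

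Set beside coding genes of the same CpG decile, the 2 classes gave similar values for the strongest promoter peak. This comparison was chosen after the data were seen. In the decile of Psmb10 (11 to 16 CpGs) 31.7% of coding genes were open in both replicates, with a median rank of 79.1, which is 5.17 points below Psmb10. Psme1 and Psme2 ranked 2.78 and 3.80 points above their decile median of 91.0, and Psmb9 1.18 points above its own. Psmb8 was the exception, at -4.28 points from its decile median of 94.3. Immunoproteasome genes ranked above their decile median in 4 of 5 cases (median difference 2.78 points), and constitutive genes in 29 of 41 (median difference 1.74 points). The strongest peak of Psme2 lay 558 bp upstream, outside the CpG window and nearest to Rnf31, and that of Psmb9 nearest to Tap1. The peaks nearest to the start ranked 71.3 and 70.3 at Psmb10, 89.8 and 88.1 at Psmb8 and 87.3 and 87.4 at Psme2. At Psmb9 they ranked 93.3 and 98.0, and at Psme1 the nearest peak was the strongest. No decile median was computed for nearest peaks. The part of CpG content in the difference between the classes was not tested.

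**Figure D3:**
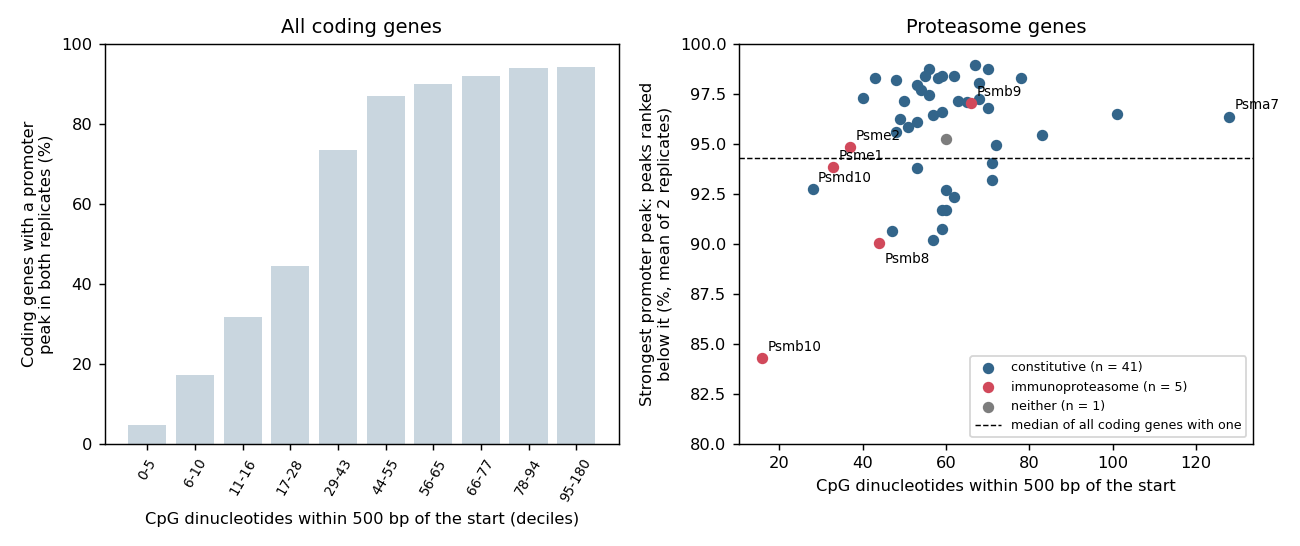
Left, share of all coding genes (%) with a promoter peak in both replicates in each decile of CpG number within 500 bp of the start, rising from 4.77% to 94.3%. Right, mean rank over 2 replicates (%) of the strongest promoter peak of each proteasome gene against its CpG number, coloured by class, with a dashed line at the median of all coding genes with a promoter peak in both replicates; Psmb10 lies at 16 CpGs and a rank of 84.3.

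Some proteasome promoters are shared with a neighbour. A divergent coding neighbour was annotated at 11 of 49 genes (22.4%), against 9.87% of all coding genes and 17.2% of those with a CpG-rich start, the class of 40 of the 49. The closest pair was Psmc2 with Dnajc2, 32 bp apart. Psma2 with Mrpl32 and Psmc5 with Ftsj3 are 75 bp apart, Psma7 with Ss18l1 76 bp, Psmd13 with Sirt3 99 bp, and Psmb1 with Tbp, the TATA-binding protein gene, 137 bp. In 6 genes (Psmc2, Psmd13, Psma2, Psmg2, Psmb9 and Psme2) the strongest promoter peak was nearest to the start of another gene in both replicates. No share over all coding genes is at hand for this count, so it is not read as particular to proteasome genes. A peak between such starts is counted for both genes.

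Replicates gave the same strongest promoter peak for most proteasome genes. The strongest peak of replicate 1 overlapped that of replicate 2 in 45 of 47 genes, the exceptions being Psmd1 and Psmb1. No share over all coding genes is at hand for this count, so it is not read as particular to proteasome genes. Scores were higher in replicate 2 at 31 genes, higher in replicate 1 at 14 and equal at 2. Over all coding genes with a promoter peak in both replicates, the median score was also higher in replicate 2 (121 against 114). The median difference in rank between replicates was 1.34 points. All 47 genes lay in a hotspot at the cap of the q-value in both replicates, as did 88.4% of all coding genes with a promoter peak in both. Hotspot width varied more, from 316 bp in both replicates at Psma3 to 2982 bp in replicate 2 at Psmb1. Psmb10, with the lowest peak score, had hotspots of 1740 and 1989 bp, above the constitutive medians of 1076 and 1220 bp.

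Sequence motifs were counted from 250 bp before to 50 bp after 1 start site per gene, on both strands. CCGGAAG, a core bound by ETS factors, was found at 18 of 49 proteasome genes (36.7%). It was found at 11.2% of all coding genes, 16.5% of those with a promoter peak in both replicates and 18.96% of those with a CpG-rich start. The 18 genes comprise 15 of 41 constitutive genes, 0 of 5 immunoproteasome genes and all 3 others (Psma8, Psmc3ip and Psme2b). Without those 3 the share was 15 of 46 (32.6%). With the 41 genes that have a RefSeq promoter window (GRCm38.p6), the count was 15, or 36.6%, against 13.4% of all genes in that table. Within the strongest promoter peak of replicate 1 it was found at 17 of 47 genes (36.2%), against 14.1% of all coding genes with such a peak. The 15 constitutive genes with a match fall into several roles: ATPases (Psmc1, Psmc2, Psmc3 and Psmc6), other regulatory subunits (Psmd2, Psmd4, Psmd6, Psmd7, Psmd11 and Psmd12), chaperones (Psmg1 and Psmg3), activators (Psme3 and Psme4) and 1 alpha subunit, Psma6.

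The stretches before the starts of Psmc6 at chr14:45329638-45329787 (plus strand), Psmd2 at chr16:20651502-20651651 (plus strand), Psmd11 at chr11:80428465-80428614 (plus strand) and Psmg1 at chr16:95990961-95991110 (minus strand) show the match in both orientations. They run from -150 to -1, and from -160 to -11 in Psmd11. Capitals again mark all motif matches, so that GGGCGG and its complement CCGCCC, the SP1 core, also appear in capitals.
Psmc6: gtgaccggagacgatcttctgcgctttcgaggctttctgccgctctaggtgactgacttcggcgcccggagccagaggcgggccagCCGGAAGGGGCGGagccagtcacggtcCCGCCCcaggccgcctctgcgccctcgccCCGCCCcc
Psmd2: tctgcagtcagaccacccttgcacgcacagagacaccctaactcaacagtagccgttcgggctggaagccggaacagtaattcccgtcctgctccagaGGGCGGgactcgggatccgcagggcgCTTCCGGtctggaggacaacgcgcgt
Psmd11: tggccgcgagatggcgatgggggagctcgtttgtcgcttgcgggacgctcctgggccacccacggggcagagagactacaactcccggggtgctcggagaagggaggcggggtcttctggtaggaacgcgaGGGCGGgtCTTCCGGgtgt
Psmg1: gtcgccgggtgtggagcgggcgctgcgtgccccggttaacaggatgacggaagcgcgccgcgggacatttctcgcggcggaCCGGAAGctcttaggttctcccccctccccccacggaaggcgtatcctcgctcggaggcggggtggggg

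CCGGAAG lies on the forward strand at 64 bases before the start in Psmc6 and 69 bases in Psmg1. It lies on the reverse strand, as CTTCCGG, at 26 bases before the start in Psmd2 and 21 bases in Psmd11. The promoter peaks over these starts scored 126 and 133 in Psmc6, 117 and 114 in Psmd2, 129 and 137 in Psmd11, and 129 and 129 in Psmg1. A match is a string of letters and does not show that a factor was bound.

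Differences from all coding genes were smaller in percentage points for the other motifs, though not as a ratio for the YY1 core. TGACNNNGC was found at 7 of 49 genes (14.3%), against 12.8% of all coding genes. The 7 are Psmb2, Psmb5, Psmb6, Psmc6, Psmd7, Psmd9 and Psmd12. CCAAT was found at 17 genes (34.7%, against 38.6%), 16 of them constitutive and none an immunoproteasome gene, although Psmb9 held it in the window placed on its RefSeq start. GGGCGG, the SP1 core, was found at 30 (61.2%), against 45.4% of all genes but 63.0% of genes with a promoter peak in both replicates. GCGCATGC (NRF1, the respiratory factor) and AAGATGGCG (YY1) were each found at 4 genes (8.16%), against 3.72% and 1.85%. TACAATTCC (ZNF143) was found at none, against 0.545%.

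Letters linked to interferon signalling, to NF-kappa-B and to cAMP were counted in the same window. Each motif was held by 0 or 1 of 5 immunoproteasome genes, too few genes to set against the shares of all coding genes. TTTCNNTTT, an interferon response core, was found at 7 genes (14.3%, against 10.5%), all of them constitutive. Within the strongest promoter peak of replicate 1 it was found at 6 of 47 proteasome genes (12.8%), against 2.79% of all coding genes with such a peak. In windows placed on RefSeq starts, Psme1 held it. TTCNNNGAA, the core bound by STAT factors, was found at 5 genes (10.2%, against 8.22%), among them Psmb8, 64 bases before its start. GGNNTTTCC, a kappa-B core bound by NF-kappa-B, was found at 4 (8.16%, against 5.70%), and within the strongest peak at 5 of 47 (10.6%, against 2.92%). TGACGTCA was found at 2, Psmb2 and Psmb8 (4.08%, against 2.48%).

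**Figure D4:**
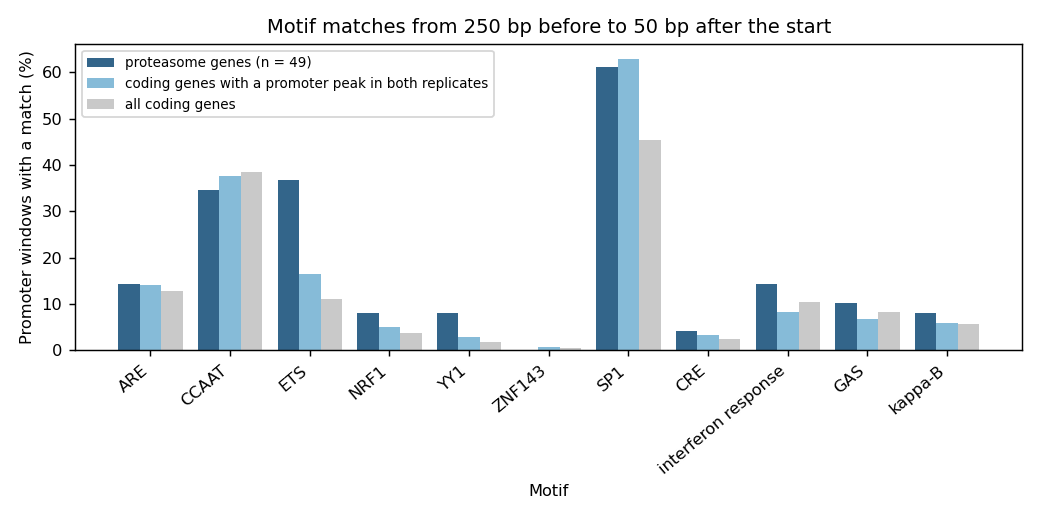
Share of promoter windows (%), from 250 bp before to 50 bp after the start, that hold each motif on either strand, for the 49 proteasome genes, coding genes with a promoter peak in both replicates and all coding genes. The ETS core stands at 36.7% of proteasome genes against 16.5% and 11.2%, and the SP1 core at 61.2% against 63.0% and 45.4%.

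Distal peaks were unevenly spread over the proteasome genes, as they were over all coding genes. A distal peak lies more than 1000 bp from any coding start and was assigned to the nearest coding start within 100 kb. A shared one was called in replicate 1 and overlapped by a replicate 2 peak. At least 1 distal shared peak was assigned to 35 of 49 proteasome genes (71.4%), against 65.0% of all coding genes. With a promoter window of 2500 bp the count was 29 of 49, slightly below the 60.3% of all coding genes. At 1000 bp the 49 genes held 158 distal shared peaks, a mean of 3.22 per gene against 3.15 over all coding genes. Coding genes with a CpG-rich start were above both, with a distal shared peak at 77.4% and a mean of 4.15. Counted in each replicate alone, the mean was 4.39 and 4.37. Proteasome genes have short territories, the sequence nearer to their starts than to any other within 100 kb. The median territory was 31.0 kb against 46.4 kb, and the density 7.54 distal shared peaks per 100 kb against 4.30 over all coding genes and 5.30 over those with a CpG-rich start. Assignment is by position and does not show which gene a site acts on.

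**Figure D5:**
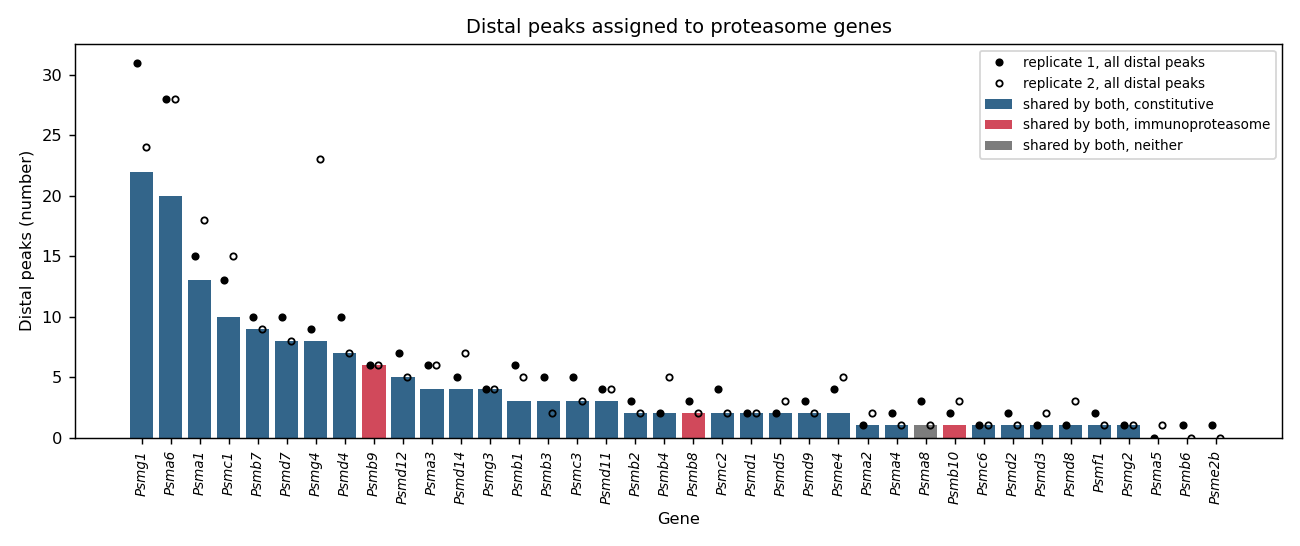
Number of distal peaks assigned to each proteasome gene that had any in either replicate: bars give peaks of replicate 1 that overlap one of replicate 2, coloured by class, and points give all distal peaks of each replicate. Psmg1 and Psma6 lead with 22 and 20, and Psmg4 has 9 in replicate 1 and 23 in replicate 2.

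The 5 genes with the most held 74 of the 158 (46.8%). No like share over all coding genes is at hand, so it is not read as particular to proteasome genes. The median number per gene was 2 and the largest 22, against 1 and 85 over all coding genes. Psmg1, an assembly chaperone, had 22, of which 16 were intergenic and 19 downstream of its starts. Its strongest by mean rank scored 104 and 105, in an intron of Psmg1 at 5.82 kb. Psma6 had 20, of which 8 lay in its own body. The strongest scored 122 and 116 in a Psma6 intron, at 4.03 kb from an alternative start, itself at -14553 bp from the main one. A further 8 lay between Psma6 and Nfkbia, the gene of an NF-kappa-B inhibitor, and the strongest of these scored 103 and 103 at 45.6 kb from Psma6 and 48.3 kb from Nfkbia. Psma1 had 13, all intergenic and upstream, with the strongest at 124 and 110, 41.5 kb from the start. Psmc1 had 10 and Psmb7 had 9.

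Immunoproteasome genes had 9 distal shared peaks on territories with a median of 4.89 kb. Constitutive genes had a mean of 3.61 per gene on a median of 38.7 kb. Per 100 kb this came to 23.0 for immunoproteasome and 7.54 for constitutive genes, the former resting on 9 peaks. Psmb9 held 6 of the 9, all intergenic and downstream, 6.36 to 14.2 kb from its nearest start, and the strongest scored 111 and 108. Psmb8 held 2. The stronger scored 121 and 118, above every promoter peak of Psmb8, and lay 1.07 kb upstream of the start within an exon of Tap1. Psmb10 held 1, at 78 and 78, in its own intron 1.35 kb from the start. Psme1 and Psme2 held none.

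The replicates differed most in distal peaks at Psmg4 and Psmg1. Psmg4 had 9 in replicate 1 and 23 in replicate 2. Of the 23, 15 overlapped no peak of replicate 1, scored 10 to 28 and lay in no hotspot of replicate 1. The 8 that were shared had a median score of 73 in replicate 2. Psmg1 had 31 in replicate 1 and 24 in replicate 2. Over all distal shared peaks of proteasome genes the median rank in replicate 1 was 65.2, against 61.1 for those of all coding genes.

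Other genes that serve the proteasome had open promoters as well. Of 20 listed, 19 were found in the annotation and all 19 were open at the promoter in both replicates, with median ranks of 97.9 and 96.6. The share was 62.2% over all coding genes and 92.6% over those with a CpG-rich start. Median ranks of those open in both replicates were 94.3 and 95.8, as means of the 2 replicates. Pomp, the chaperone that matures the core particle, scored 119 and 126. Adrm1, a ubiquitin receptor of the regulatory particle, scored 138 and 140. Nfe2l1 scored 134 and 136, and its relative Nfe2l2, the regulator of the oxidative stress response, 108 and 109. Ubqln2, a shuttle for ubiquitinated proteins, was lowest at 69 and 94. Of the antigen processing and interferon genes listed, 11 of 11 had a promoter peak in both, with median ranks of 97.1 and 96.9. The same shares of 62.2% and 92.6% stand beside this count. Tapbp (tapasin) scored 130 and 142 and Irf1, the interferon regulatory factor known to act on immunoproteasome genes, 127 and 134. Erap1, which trims peptides, was the lowest at 90 and 105.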

How the data were processed

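DNase-seq of newborn thymus was deposited for 2 biological replicates of 1 group, with peaks and hotspots called for each library alone on mm10, per the labels and the file headers. Not given in the sources used here were the aligner, the callers and their thresholds. Depth is unknown, since no read totals were at hand, and no interval or floor is given for the values. The authors gave each deposited peak a whole-number score (1 to 150, meaning not stated), used here to rank peaks within a list. Whether 150 is a fixed upper limit, which would compress the strongest peaks, is not stated. The authors' hotspots carry a −log10 q-value, lowest at 1.30 and capped at 100.

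Starts came from GENCODE M21 (54361 coding starts, 21853 genes); overlap was at least 1 bp. With 1 group there was nothing to test, and values stand beside those of all coding genes. Motif windows used 1 start per gene. The RefSeq promoter table (GRCm38.p6) matched 41 of 49 genes. The genes, lists, 11 motifs and alternatives were chosen with earlier results of these data known. All proteasome genes could be named, with full values for the immunoproteasome and constitutive catalytic genes, the 3 highest and 3 lowest constitutive genes by rank, genes lacking a promoter peak in a replicate, the 5 with the most distal shared peaks and the 2 whose distal counts differed most between replicates. Gene assignment was tested on simulated data. Tools were Python 3.11.15, pysam 0.24.0, pandas 2.3.3, numpy 2.4.6, matplotlib 3.10.9 and scipy 1.17.1.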

Additional observations from a re-analysis of the deposited data

How the results depend on the processing

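No paired analysis was possible because the series has 1 group. Promoter peaks in both replicates were found at 47 proteasome genes under every alternative run, except that replicate 2 alone gave 49. The 3.29 points between constitutive and immunoproteasome medians kept their direction throughout. The difference was 6.58 with the stronger 50% of peaks, 1.91 with a promoter window of 2500 bp, 7.78 with one of 500 bp and 7.78 with the peak nearest to the start, an alternative added after seeing the data. The immunoproteasome median (93.5) became 86.9, 94.8, 89.0 and 89.0 in that order, and 93.1 with equal numbers of peaks. The constitutive median (96.8) became 93.5 with the stronger 50%, where ranks count within a shorter list.

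Proteasome genes with at least 1 distal shared peak numbered 35, and from 29 at 2500 bp to 37 at 500 bp under the alternatives. At 2500 bp their share fell slightly below the 60.3% of all coding genes. The mean number of distal shared peaks per gene (3.22) ranged from 4.37 to 4.39 in single replicates, where no sharing is required. It was 2.06 with the stronger 50%, 3.16 with equal numbers, 3.02 with a reciprocal overlap of 50%, 2.80 at 2500 bp, 3.71 at 500 bp, 3.02 with start sites of all biotypes, 3.24 for hotspots and 2.80 within 50 kb. Over all coding genes it was 1.75 with the stronger 50%, 4.27 in replicate 2 alone and 4.67 in replicate 1 alone, so that proteasome genes stood below all genes in replicate 1 alone (4.39 against 4.67). Against genes with a promoter peak in both replicates, the SP1 core was 1.74 points less frequent (-1.74), and within the strongest peak the cAMP response element was less frequent (-0.886). Within the strongest peak the excess over all genes grew from 3.83 to 9.97 points for the interferon response core and from 2.47 to 7.72 for the kappa-B core. Depth, the unstated score and 2 replicates limit all values.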
